A study of Gallus gallus with 60 samples.

Results

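The comparison described here is that of streptomycin-treated with control chicken utricles at 96 h, 6 of the 60 libraries of a time series of utricle damage and recovery. Its samples were those labelled treated or control at 96 h, replicates 1, 2 and 3 of each arm, paired by their number, and its genes were the 13862 of 17684 table rows that reached 1 RPKM in 2 or more libraries of the series. RPKM counts the reads that fall on a kilobase of a transcript, relative to all alignments of its library. Treated utricles of Gallus gallus were dissected, exposed to streptomycin for 24 h and left to recover, and control utricles carry no other description in the labels. Strain, age, the starting point of the hours and the number of organs pooled in a sample are not in the labels. The p-values therefore measure a spread between samples that may be in part technical. That spread was estimated from the paired differences of all 11 times together, not from the 3 pairs of 96 h alone.

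The utricle is the inner ear organ that senses gravity and linear acceleration. Its sensory hair cells carry a bundle of actin-filled stereocilia in which stretch-gated channels open, and release glutamate onto nerve endings from ribbon synapses. Streptomycin is an aminoglycoside antibiotic that kills hair cells. In birds the surrounding supporting cells divide or convert directly and replace them. Notch signalling between neighbouring cells, in which a ligand such as DLL1 activates receptors that switch on HES genes, decides which cell becomes a hair cell, and the transcription factor ATOH1 starts the hair cell programme.

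The 3 treated libraries held 3232929, 17407631 and 34299202 alignments and the 3 control libraries 10687854, 18791816 and 34338979, in replicate order. Treated replicate 1, the shallowest, stood apart: its log values correlated with those of the other 5 libraries at r = 0.9004 to 0.9361, against 0.9745 between treated replicates 2 and 3 and 0.9609 to 0.9693 among controls. Of the 110 called genes that a fixed rule named, 87 kept their call without replicate 1 of both arms, 75 without replicate 2, 72 without replicate 3 and 76 without the pair term. Calls lost in these 4 fits are mostly given beside the genes described or with their lists. A fit to the 6 samples of 96 h alone, with 2 residual degrees of freedom, kept 36 of the 110 calls. Markers of the labelled tissue were present in every library. The summed level of 6 hair cell markers was 95.8 to 126 RPKM in treated and 449 to 541 RPKM in control utricles, and that of 5 supporting cell markers 1453 to 2175 RPKM in treated and 487.3 to 1064 RPKM in control utricles. Of these 5, OTOL1, GJB6 and OC90 did not overlap between the arms, whereas SOX2 and TECTA did. Among all genes tested, 23.6% did not overlap. Over all 27 tested supporting cell genes the sums lay closer, at 5361.1 to 6327.1 RPKM in treated and 3959.6 to 5334.7 RPKM in control utricles. The summed level of 6 stromal markers reached 1056 RPKM in treated replicate 1, against 153.2 RPKM in the lowest treated library and 90.02 to 305 RPKM in controls. The summed level of 4 leukocyte markers, which did not all move the same way, was 6.86 to 11.0 RPKM in treated and 9.29 to 9.86 RPKM in control utricles. The lowest of them, PTPRC, stayed under 1 RPKM in all 6 libraries. In whole-organ samples fewer cells of a type and less RNA per cell cannot be told apart.

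At 96 h, 1467 genes differed between treated and control utricles, 10.6% of those tested (limma with the pairs as a block, Benjamini-Hochberg adjusted p under 0.05). Of these, 623 (4.49%) were higher and 844 (6.09%) lower in treated utricles. The falls reached further than the rises: 494 genes (3.56%) fell and 196 (1.41%) rose by at least 1 on the log2 scale, and 137 fell and 11 rose by at least 2. The median change over all genes tested was 0.02. The called genes moved the same way in all 3 pairs in 1448 cases. The call rests on the mean of these same 3 differences, so that count is no separate support. Treated and control values did not overlap for 1340 of the called genes, and for 3276 of all genes tested (23.6%). Changes are given as treated minus control of log2(RPKM + 0.5) ± SE, a scale that understates the change of low genes. Without replicate 1 the test called 1337 genes, 1004 of them shared with the 1467, without replicate 2 it called 723 and without replicate 3 it called 507. Without the pair term it called 713, of which 709 were shared. With weights estimated per pair it called 5248, with more rises (2784) than falls (2464).

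Among genes with a symbol the largest fall was in SS2, the precursor of a somatostatin. SS2 had 3.44, 2.03 and 0.906 RPKM in the 3 treated utricle samples, against 149.5, 130.1 and 55.5 RPKM in the controls, a change of -5.42 ± 0.46 (42.8-fold lower, adjusted p = 7.71e-08). NMB, the precursor of neuromedin B, had 2.00, 1.67 and 1.13 RPKM in treated and 46.0, 34.3 and 34.1 RPKM in control samples (-4.21 ± 0.37, adjusted p = 1.13e-07). For both peptides every treated sample lay far under the lowest control. SKOR2, a transcriptional corepressor of the SKI family, had 0.745, 0.828 and 0.356 RPKM in treated against 28.6, 19.5 and 19.7 RPKM in control samples, 20.3-fold lower (adjusted p = 5.84e-07). B3GALT4, which encodes a galactosyltransferase of ganglioside synthesis, was even between replicates, with 4.70, 4.02 and 4.24 RPKM in treated and 48.9, 37.4 and 47.6 RPKM in control samples (-3.22 ± 0.27, adjusted p = 5.97e-08). The other falls among the 15 largest were in CLIC5, SMPX, PCSK2, CIB3, TAC1, PCDH8, BAALC, TMCC2, CCK, RASD2 and ADCYAP1, from -3.15 to -4.30. In CCK, the precursor of cholecystokinin, control replicate 1 was low: the treated samples had 6.73, 5.98 and 2.61 RPKM and the controls 14.6, 94.3 and 83.1 RPKM (-3.23 ± 0.73, adjusted p = 0.00601). That call was lost without replicate 2 (adjusted p = 0.0707) and without replicate 3 (adjusted p = 0.136).

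**Figure D1:**
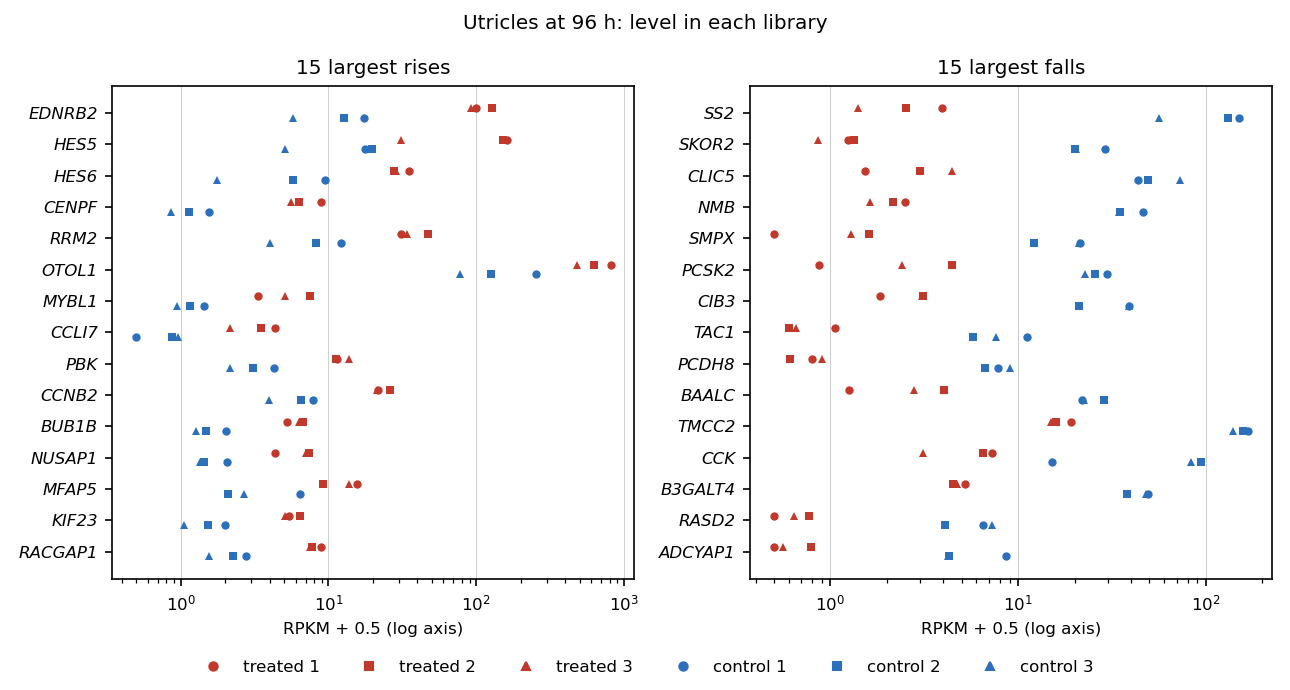
Levels of the 15 genes with the largest rises (left) and the 15 with the largest falls (right) at 96 h, as RPKM + 0.5 on a log axis, with 1 point per library (treated red, control blue; circle, square and triangle for replicates 1, 2 and 3). Every treated point of the genes that rose lies above every control point, and every treated point of the genes that fell lies under every control point.

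Most genes of the hair bundle were lower. Of 37 tested genes of the bundle and mechanotransduction list, 25 fell, none rose and 12 did not pass, with a median of -1.46, against 6.09% of all genes called lower. Like the other lists, this one was chosen with earlier results of these data known, so its count is no separate support. CLIC5, a protein of the stereocilium base, had 1.03, 2.48 and 3.94 RPKM in treated samples and 43.2, 48.5 and 72.0 RPKM in controls (-4.30 ± 0.36, adjusted p = 5.97e-08). SMPX, whose human gene is mutated in a form of deafness, was listed at 0, 1.10 and 0.787 RPKM in treated samples, against 20.9, 11.7 and 20.6 RPKM in controls (-4.12 ± 0.45, adjusted p = 1.77e-06). CIB3, a calcium-binding partner of the transduction channel, had 1.35, 2.61 and 2.56 RPKM in treated against 38.7, 20.5 and 38.7 RPKM in control samples (-3.61 ± 0.35, adjusted p = 3.58e-07). No treated sample reached the lowest control for any of these genes.

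The channel subunit gene TMC2 had 1.98, 4.57 and 4.10 RPKM in treated and 13.1, 12.7 and 13.3 RPKM in control samples (-1.81 ± 0.27, adjusted p = 9.49e-05). Its relative TMC1 changed by -1.24 ± 0.31 (adjusted p = 0.0127), and the channel accessory genes TMIE and LHFPL5 by -1.81 ± 0.42 and -1.27 ± 0.26 (adjusted p = 0.00709 and 0.0024). The tip link genes also fell, CDH23 by 1.53 ± 0.23 (adjusted p = 9.5e-05) and PCDH15 by 0.81 ± 0.26 (adjusted p = 0.045). MYO7A, a bundle motor, had 5.53, 11.9 and 8.25 RPKM in treated against 34.2, 31.4 and 26.6 RPKM in control samples (-1.84 ± 0.26, adjusted p = 3.69e-05). MYO15A, which carries cargo to stereocilium tips, changed by -2.26 ± 0.26 (adjusted p = 2.65e-06), and the actin bundlers FSCN2 and ESPN by -2.89 ± 0.36 and -2.38 ± 0.25 (adjusted p = 7.59e-06 and 9.12e-07). The motors MYO6 and MYO1C, which are also made outside hair cells, stood at -0.40 ± 0.18 and -0.01 ± 0.19 and did not pass (adjusted p = 0.176 and 0.987). Without replicate 1, 20 bundle genes fell, and in that fit CIB2 and OTOA rose. Without the pair term 22 fell. The calls of TMC1 (adjusted p = 0.141 and 0.0597 without replicates 1 and 3), TMIE (adjusted p = 0.0661 and 0.0815 without replicates 1 and 3) and PCDH15 (adjusted p = 0.241, 0.0911 and 0.17 without replicates 1, 2 and 3, 0.0955 without the pair term) were lost in some fits. MYO6 passed without replicate 2 (adjusted p = 0.0413).

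Genes of transmitter release, channels and calcium buffering fell in 20 of 29 cases (69.0%, beside 6.09% of all genes), with none higher and a median of -1.56. OTOF encodes otoferlin, the calcium sensor of hair cell exocytosis, and had 50.3, 62.2 and 50.4 RPKM in treated against 366, 301 and 277 RPKM in control samples (-2.52 ± 0.25, adjusted p = 4.82e-07). SLC17A8, which loads glutamate into vesicles, had 6.59, 6.92 and 6.30 RPKM in treated and 47.2, 38.3 and 56.8 RPKM in control samples (-2.74 ± 0.20, adjusted p = 2.08e-08). The treated samples of both genes were close to each other and far under the controls. CALB2, a calcium buffer, had 107, 127 and 86.6 RPKM in treated and 551, 574 and 456 RPKM in control samples (-2.31 ± 0.20, adjusted p = 7.71e-08). OCM2, a buffer of the parvalbumin family, had 90.2, 106 and 105 RPKM in treated against 478, 330.5 and 648 RPKM in control samples (-2.22 ± 0.22, adjusted p = 4.82e-07). CABP1, a regulator of calcium channels, fell by 2.87 ± 0.29 (adjusted p = 6.3e-07), the synapsin gene SYN3 by 2.90 ± 0.29 (adjusted p = 4.82e-07) and neurogranin, NRGN, by 2.96 ± 0.66 (adjusted p = 0.00502). CACNA1D, the calcium channel of the ribbon synapse, and KCNMA1, a calcium-gated potassium channel, changed by -2.11 ± 0.25 and -2.17 ± 0.22 (adjusted p = 4.96e-06 and 7.95e-07). The efferent receptor subunit CHRNA9 changed by -2.16 ± 0.38 (adjusted p = 0.000623), whereas its partner CHRNA10 stood at -0.23 ± 0.29 and did not pass (adjusted p = 0.698). CTBP2, whose locus encodes a ribbon protein and a widely expressed corepressor, stood at 0.07 ± 0.18 (adjusted p = 0.865).

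The list of neuropeptides and hair cell secreted peptides, also chosen with earlier results of these data known, held further falls. Of 20 tested members of that list, 13 fell (65.0%) and 1 rose (5.0%), beside 6.09% and 4.49% of all genes, with a median of -1.14. TAC1, the tachykinin precursor, had 0.555, 0.102 and 0.156 RPKM in treated against 10.7, 5.21 and 7.10 RPKM in control samples (-3.40 ± 0.39, adjusted p = 2.67e-06). PCSK2, a convertase that cuts peptide precursors, had 0.367, 3.92 and 1.91 RPKM in treated and 29.3, 25.3 and 22.3 RPKM in control samples (-3.63 ± 0.37, adjusted p = 6.3e-07). The precursor genes ADCYAP1, VIP and NMU changed by -3.15 ± 0.49, -2.75 ± 0.49 and -1.90 ± 0.53, and the granule proteins SCG3 and CHGA by -1.51 ± 0.19 and -1.41 ± 0.26 (adjusted p of at most 0.0231). PENK, the enkephalin precursor, was the member that rose, with 7.54, 9.43 and 6.04 RPKM in treated against 3.36, 2.91 and 2.82 RPKM in control samples (1.19 ± 0.23, adjusted p = 0.00174). NPY and CPE stood at 0.36 ± 0.33 and -0.36 ± 0.23 and did not pass (adjusted p = 0.556 and 0.359). Without replicate 2, and likewise without replicate 3, 8 peptide genes fell, and NMU was not among them (adjusted p = 0.199 and 0.374 without replicates 2 and 3).

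Transcription factors of hair cells went both ways: of 17 tested, 2 rose (11.8%), 4 fell (23.5%) and 11 did not pass, with a median of 0.26. The shares of all genes were 4.49% and 6.09%. GFI1, a repressor that hair cells need to survive in mice, had 10.7, 8.37 and 8.92 RPKM in treated and 42.2, 26.3 and 42.3 RPKM in control samples (-1.91 ± 0.21, adjusted p = 2.33e-06). LHX3, a LIM homeobox factor of vestibular hair cells, had 24.6, 19.7 and 16.6 RPKM in treated against 57.3, 46.2 and 42.5 RPKM in control samples (-1.25 ± 0.24, adjusted p = 0.00136). MYT1, a zinc finger factor, changed by -1.41 ± 0.23 (adjusted p = 0.000306), and the largest fall was in SKOR2, given above. POU4F3, which maintains hair cells, had 34.1, 31.8 and 17.8 RPKM in treated and 38.1, 39.4 and 36.2 RPKM in control samples, without overlap, and did not pass the test (-0.49 ± 0.24, adjusted p = 0.22). ATOH1 had 121, 104 and 48.3 RPKM in treated against 66.1, 68.7 and 20.5 RPKM in control samples. Its values overlapped between the arms, with replicate 3 the lowest sample of each, and were higher in the treated sample of all 3 pairs (0.90 ± 0.28, adjusted p = 0.0416). That call was lost without each replicate (adjusted p = 0.113, 0.0894 and 0.284 without replicates 1, 2 and 3) and without the pair term (adjusted p = 0.551). NHLH1, a factor that follows ATOH1, stood at 1.16 ± 0.42 and did not pass (adjusted p = 0.0857).

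HES6, a bHLH protein that opposes HES1, was among the genes with the largest rises. It had 34.3, 27.3 and 28.3 RPKM in treated samples and 8.97, 5.26 and 1.27 RPKM in controls (2.73 ± 0.43, 6.62-fold higher, adjusted p = 0.000212). In the Notch list 5 of 32 tested genes rose (15.6%), 1 fell (3.12%) and 26 did not pass, with a median of 0.24. Of all genes 4.49% rose and 6.09% fell. Among ligands, DLL1 had 67.7, 50.6 and 35.0 RPKM in treated against 18.8, 16.7 and 7.42 RPKM in control samples, 3.61-fold higher (1.85 ± 0.25, adjusted p = 2.98e-05). JAG1, a ligand made by supporting cells, had 168, 248 and 237 RPKM in treated and 213.5, 214 and 168 RPKM in control samples, which overlapped (0.12 ± 0.19, adjusted p = 0.765). DNER, an atypical Notch ligand, fell, with 25.0, 26.8 and 28.6 RPKM in treated against 94.6, 66.2 and 98.4 RPKM in control samples (-1.65 ± 0.17, adjusted p = 6.3e-07).

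Among receptors, NOTCH1 and NOTCH2 stood at 0.48 ± 0.24 and -0.31 ± 0.20 and did not pass (adjusted p = 0.235 and 0.384). PSEN2, a catalytic subunit of the protease that frees the receptor's inner part, and POFUT1, which adds fucose to the receptor, rose by 0.60 ± 0.12 and 0.56 ± 0.16 (adjusted p = 0.00143 and 0.0296). PSEN2 did not pass in 1 of the 4 fits (adjusted p = 0.0598 without the pair term) and POFUT1 in all 4 (adjusted p = 0.0999, 0.125 and 0.143 without replicates 1, 2 and 3, 0.084 without the pair term). Without the pair term 2 genes of the Notch list rose. LFNG, a glycosyltransferase that modifies the receptor, had 105, 113 and 159.9 RPKM in treated and 101, 86.7 and 55.4 RPKM in control samples, without overlap, and did not pass (0.65 ± 0.24, adjusted p = 0.0942), though it did without replicate 1 (adjusted p = 0.0378). The Notch target HES5 had 161.5, 151 and 30.3 RPKM in treated against 17.1, 19.2 and 4.57 RPKM in control samples. In both arms replicate 3 was the lowest, and each treated sample exceeded every control (2.92 ± 0.56, 7.55-fold higher, adjusted p = 0.00137). The call of HES5 held without each replicate and was lost without the pair term (adjusted p = 0.179). Other targets did not pass, with HES1 at 0.39 ± 0.34, HEY1 at 0.00 ± 0.18, HEY2 at 0.40 ± 0.34 and HEYL at 0.58 ± 0.44 (adjusted p of at least 0.454).

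Of 27 tested genes of supporting cells, 6 rose and none fell, against 4.49% of all genes called higher, and the median was 0.45. OTOL1, an otoconial scaffold protein, had 809, 629 and 479 RPKM in treated and 251, 126 and 77.1 RPKM in control samples, with no overlap (2.21 ± 0.49, adjusted p = 0.00551). Without replicate 3 OTOL1 did not pass (adjusted p = 0.0807), nor did it without the pair term (adjusted p = 0.0622). GJB6, the gap junction protein connexin 30, had 492.5, 853 and 542 RPKM in treated against 254, 214 and 129.9 RPKM in control samples (1.67 ± 0.27, adjusted p = 0.000285). TECTB, a tectorin of the extracellular membrane over the epithelium, had 86.0, 160.1 and 157 RPKM in treated and 52.1, 41.4 and 42.7 RPKM in control samples (1.51 ± 0.37, adjusted p = 0.0106), a call lost without replicate 2 (adjusted p = 0.118) and without replicate 3 (adjusted p = 0.129). SLC1A3, a glutamate transporter, and SOX10, a transcription factor of supporting cells and glia, rose by 0.71 ± 0.19 and 0.73 ± 0.23 (adjusted p = 0.0193 and 0.0398). Both calls were lost in other fits, SLC1A3 at adjusted p = 0.238 and 0.218 without replicates 2 and 3, 0.111 without the pair term and SOX10 at adjusted p = 0.0964, 0.0565 and 0.347 without replicates 1, 2 and 3, 0.261 without the pair term.

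LGR5, a receptor for R-spondins, was level in treated replicate 1 and high in treated replicates 2 and 3, with 4.59, 13.7 and 13.7 RPKM in treated against 4.50, 4.47 and 4.63 RPKM in control samples (1.002 ± 0.29, adjusted p = 0.0305). Its change was 1.49 without replicate 1 (adjusted p = 0.00506), and the call was lost in 3 fits (adjusted p = 0.268 and 0.279 without replicates 2 and 3, 0.12 without the pair term). SOX2, which marks supporting cells and progenitors, had 259, 375 and 158 RPKM in treated and 277.5, 367.5 and 155 RPKM in control samples. These tracked each other by replicate (-0.01 ± 0.13, adjusted p = 0.972), and the sign of the difference turned without replicate 1. Without the pair term 2 supporting cell genes rose, without replicate 2 also 2, and without replicate 3 only 1. In the list of otoconial and tectorial proteins, which shares OTOL1 and TECTB with the supporting cell list, those 2 of 13 tested genes rose (15.4%, beside 4.49% of all genes) and none fell (median 0.54). In that list 4, 1 and 0 rose without replicates 1, 2 and 3 and 1 without the pair term. OC90, a main otoconial matrix protein, stood at 1.01 ± 0.39 and did not pass (adjusted p = 0.107).

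EDNRB2, an endothelin receptor that birds have beside EDNRB and that is best known from pigment cell precursors, showed the largest rise among genes with a symbol. It had 98.4, 128 and 91.6 RPKM in treated and 16.8, 12.2 and 5.25 RPKM in control samples, 9.73-fold higher (3.28 ± 0.25, adjusted p = 3.92e-08). Every treated sample lay far above the highest control, and the call held without each replicate and without the pair term. It was the 1 called gene of 12 tested in the melanocyte list (8.33%, beside 4.49% of all genes called higher), whose median was 0.13. Without replicate 1, 3 genes of that list rose, EDNRB2, KIT (adjusted p = 0.0482) and SLC24A5 (adjusted p = 0.0258), and the median was 0.25. Of the other pigment cell genes, TYRP1 stood at 0.52 ± 0.32, MITF at 0.05 ± 0.22, KIT at 0.94 ± 0.33 and EDNRB at -0.72 ± 0.43, none of which passed with all replicates (adjusted p of at least 0.0754).

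Most genes of cell division rose. Of 75 tested mitosis genes, 54 rose (72.0%, beside 4.49% of all genes), none fell and 21 did not pass, with a median of 1.32. CENPF, a kinetochore protein, had 8.37, 5.81 and 5.04 RPKM in treated and 1.04, 0.646 and 0.359 RPKM in control samples (2.56 ± 0.36, adjusted p = 4.92e-05). CCNB2, a cyclin of the entry into mitosis, had 21.2, 25.7 and 20.7 RPKM in treated against 7.34, 6.02 and 3.48 RPKM in control samples (1.96 ± 0.25, adjusted p = 1.25e-05). TOP2A, which untangles sister chromatids, had 10.7, 17.4 and 13.0 RPKM in treated and 4.70, 4.14 and 2.02 RPKM in control samples (1.83 ± 0.28, adjusted p = 0.000142). For these genes the treated samples were similar to each other and all above the controls, among which replicate 3 was lowest. The kinase CDK1, the factor FOXM1 and the kinase PLK1 rose by 1.80 ± 0.29, 1.80 ± 0.24 and 1.82 ± 0.36 (adjusted p = 0.000268, 1.83e-05 and 0.00174). PBK, BUB1B, NUSAP1, KIF23 and RACGAP1, of the mitotic checkpoint, spindle and cell cleavage, rose by 1.91 to 1.99 and stood among the 15 largest rises. MYBL1, a transcription factor of the MYB family outside the list, did so too (2.12 ± 0.36, adjusted p = 0.000436). CCNA2 had 4.94, 6.99 and 5.25 RPKM in treated against 2.47, 1.91 and 2.11 RPKM in control samples (1.22 ± 0.21, adjusted p = 0.000568). Without replicate 1, 52 mitosis genes rose, and without replicate 3, 28 did.

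Of 47 tested DNA replication genes 22 rose (46.8%, beside 4.49% of all genes) and none fell, and the median was 0.59. RRM2, a subunit of the enzyme that makes deoxynucleotides, had 30.6, 46.4 and 33.4 RPKM in treated and 11.6, 7.77 and 3.53 RPKM in control samples (2.31 ± 0.31, adjusted p = 2.48e-05). MCM6, a subunit of the replicative helicase, had 41.0, 46.2 and 48.7 RPKM in treated against 16.3, 16.7 and 11.1 RPKM in control samples (1.61 ± 0.21, adjusted p = 1.72e-05). Its partners MCM5, MCM3 and MCM2 rose by 1.43 ± 0.22, 1.397 ± 0.24 and 0.60 ± 0.15 (adjusted p = 0.000162, 0.000506 and 0.0145), while MCM4 stood at 0.32 ± 0.24 (adjusted p = 0.444). MCM2 was called in none of the fits without a replicate or the pair term (adjusted p = 0.0804, 0.0686 and 0.0817 without replicates 1, 2 and 3, 0.11 without the pair term). The thymidine kinase gene TK1 rose by 1.47 ± 0.28 (adjusted p = 0.00119). PCNA, the sliding clamp, had 50.8, 54.2 and 55.8 RPKM in treated and 33.7, 42.2 and 43.7 RPKM in control samples and did not pass (0.43 ± 0.15, adjusted p = 0.0714), although the arms did not overlap. The count fell to 14 without the pair term, 9 without replicate 2 and 7 without replicate 3.

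Of 23 regulators of the step from G1 to S phase, 5 rose (21.7%, beside 4.49% of all genes) and none fell (median 0.21). In this list 2, 2 and 1 rose without replicates 1, 2 and 3 and 2 without the pair term. CCND3, a D-type cyclin, had 74.4, 45.2 and 60.7 RPKM in treated against 26.9, 23.2 and 12.8 RPKM in control samples (1.53 ± 0.20, adjusted p = 1.81e-05), whereas CCND1 and CCND2 stood at -0.12 ± 0.20 and 0.36 ± 0.21 (adjusted p = 0.766 and 0.314). The factor E2F1 rose by 1.25 ± 0.29 (adjusted p = 0.00774). CDKN2C, an inhibitor of the D-type cyclin kinases, rose by 1.28 ± 0.41 (adjusted p = 0.0479). E2F1 lost its call in 2 of the 4 fits (adjusted p = 0.0604 and 0.121 without replicates 1 and 3) and CDKN2C in all 4 (adjusted p = 0.0777, 0.143 and 0.313 without replicates 1, 2 and 3, 0.167 without the pair term). CDKN1B, the inhibitor that keeps supporting cells out of the cycle in mammals, stood at -0.32 ± 0.13 (adjusted p = 0.146). CDKN1A, an inhibitor that p53 induces, had 1.89, 4.53 and 4.44 RPKM in treated and 10.2, 7.42 and 4.41 RPKM in control samples, which overlapped (-0.94 ± 0.55, adjusted p = 0.315).

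**Figure D2:**
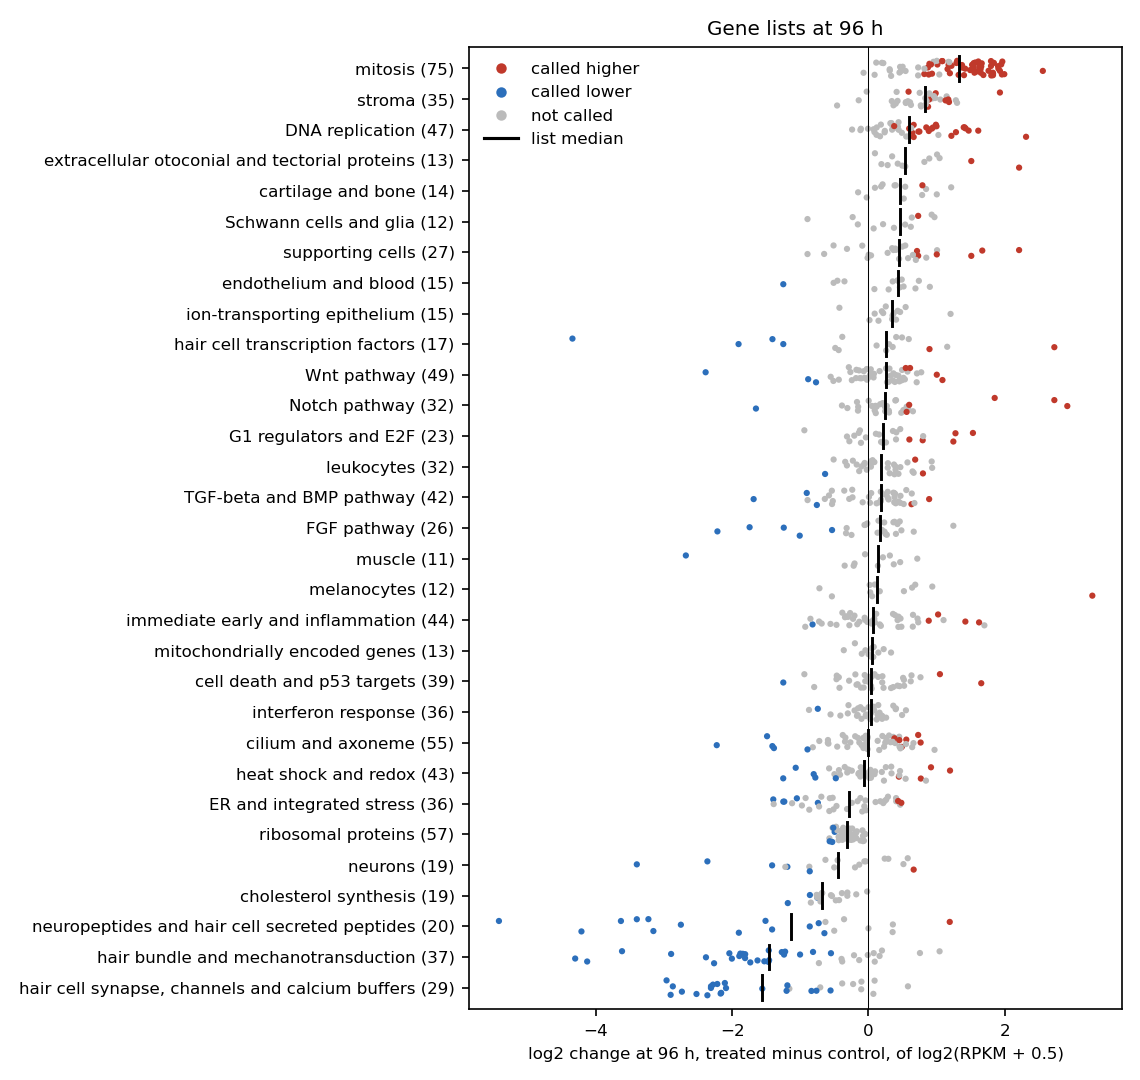
Change at 96 h (treated minus control of log2(RPKM + 0.5)) of each tested member of 31 gene lists, with the number of members in brackets (red, called higher; blue, called lower; grey, not called; black bar, list median). The medians run from -1.56 for the hair cell synapse list to 1.32 for mitosis.

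Of the signalling pathways, the FGF list had 5 of 26 tested genes lower (19.2%, beside 6.09% of all genes) and none higher, with a median of 0.17. FGF19 had 0.308, 0.284 and 1.05 RPKM in treated and 2.33, 6.13 and 4.73 RPKM in control samples (-2.21 ± 0.43, adjusted p = 0.00148). FGF3, a ligand of inner ear development, had 3.92, 5.56 and 5.78 RPKM in treated against 10.9, 8.74 and 12.4 RPKM in control samples (-1.01 ± 0.25, adjusted p = 0.0111). FGF14, an intracellular member that binds sodium channels, changed by -1.74 ± 0.49 (adjusted p = 0.0246). Of the response genes, ETV4 had 63.9, 28.7 and 46.3 RPKM in treated and 89.9, 97.8 and 130.4 RPKM in control samples, with no overlap (-1.24 ± 0.22, adjusted p = 0.000551), and ETV1 changed by -0.53 ± 0.13 (adjusted p = 0.00956). The receptors FGFR1, FGFR2 and FGFR3 stood at -0.32 ± 0.20, 0.23 ± 0.16 and 0.37 ± 0.31, and FGF20 at 1.25 ± 0.50, and did not pass (adjusted p of at least 0.118), though FGFR1 did without replicate 1 (adjusted p = 0.0499). FGF3 (adjusted p = 0.0977 and 0.091 without replicates 1 and 3, 0.0572 without the pair term), FGF14 (adjusted p = 0.123 and 0.196 without replicates 2 and 3, 0.0854 without the pair term) and ETV1 (adjusted p = 0.0841 and 0.103 without replicates 2 and 3, 0.111 without the pair term) lost their calls in some fits. Without replicate 2 of both arms 3 FGF genes fell, and without replicate 3, as without the pair term, 2 did.

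In the Wnt list 4 of 49 tested genes rose (8.16%) and 3 fell (6.12%), shares near the 4.49% and 6.09% of all genes. Its median was 0.26, and -0.07 without replicate 1. RSPO3, a secreted amplifier of Wnt signals, had 2.02, 2.29 and 0.915 RPKM in treated against 14.8, 8.18 and 10.2 RPKM in control samples (-2.39 ± 0.31, adjusted p = 1.46e-05). The ligands WNT7A and WNT7B changed by -0.77 ± 0.24 and -0.88 ± 0.28 (adjusted p = 0.0394 and 0.0447). The receptor FZD4 had 12.5, 16.8 and 14.3 RPKM in treated and 8.08, 7.92 and 4.34 RPKM in control samples (1.08 ± 0.24, adjusted p = 0.00584). LGR4, which like LGR5 binds R-spondins, and WLS, which Wnt ligands need for secretion, rose by 0.61 ± 0.14 and 0.55 ± 0.15 (adjusted p = 0.0068 and 0.0252). AXIN2, a common target of the pathway, stood at -0.43 ± 0.16 (adjusted p = 0.0806). Without the pair term 2 Wnt genes rose and 1 fell, and without replicate 3 none rose and 2 fell. Leaving out replicate 1 or replicate 2 left 1 fall. Of the members named, RSPO3 alone kept its call in all 4 of these fits. The others lost it, WNT7A at adjusted p = 0.29 and 0.163 without replicates 1 and 2, 0.222 without the pair term, WNT7B at adjusted p = 0.183, 0.179 and 0.122 without replicates 1, 2 and 3, 0.106 without the pair term, FZD4 at adjusted p = 0.138 without replicate 3, LGR4 at adjusted p = 0.119 without replicate 3 and WLS at adjusted p = 0.214 and 0.129 without replicates 1 and 3, 0.144 without the pair term.

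In the TGF-beta and BMP list 2 of 42 tested genes rose (4.76%) and 3 fell (7.14%), also near the shares of all genes, and the median was 0.18. BMP2 had 2.72, 4.27 and 3.97 RPKM in treated against 12.9, 9.72 and 16.1 RPKM in control samples (-1.68 ± 0.21, adjusted p = 7.59e-06), whereas BMP4 stood at -0.64 ± 0.28 (adjusted p = 0.155). PMEPA1, a target and inhibitor of TGF-beta signalling, and NBL1, a secreted BMP antagonist, changed by -0.91 ± 0.27 and -0.76 ± 0.16 (adjusted p = 0.036 and 0.00416). TGFBI and FSTL1, matrix and secreted proteins, rose by 0.89 ± 0.26 and 0.63 ± 0.20 (adjusted p = 0.0304 and 0.0422). The fall of BMP2 was the 1 call of this list that held without the pair term and without replicate 3. The others lost their calls, PMEPA1 at adjusted p = 0.391 and 0.154 without replicates 2 and 3, 0.33 without the pair term, NBL1 at adjusted p = 0.115 and 0.0511 without replicates 2 and 3, 0.111 without the pair term, TGFBI at adjusted p = 0.264 and 0.103 without replicates 1 and 3, 0.238 without the pair term and FSTL1 at adjusted p = 0.185 and 0.401 without replicates 2 and 3, 0.203 without the pair term.

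Markers of other cell types moved as follows. In the stroma list 8 of 35 tested genes rose (22.9%, beside 4.49% of all genes) and none fell, with a median of 0.83. Its summed level was 3401.4, 2138.7 and 1586.2 RPKM in the treated samples against 1490.4, 1481.6 and 855.4 RPKM in the controls. MFAP5, a microfibril protein, had 15.04, 8.75 and 13.2 RPKM in treated and 5.93, 1.58 and 2.16 RPKM in control samples (1.93 ± 0.45, adjusted p = 0.00774). DCN, POSTN and OGN, which encode matrix proteins, rose by 1.18 ± 0.34, 1.17 ± 0.34 and 1.13 ± 0.32 (adjusted p = 0.0258, 0.0309 and 0.0262). Collagen I, COL1A1, had 858, 292 and 87.2 RPKM in treated and 228, 256 and 53.3 RPKM in control samples, overlapped between the arms and did not pass (0.94 ± 0.47, adjusted p = 0.227). The median of the stroma list was 1.32 in pair 1, 0.55 in pair 2 and 0.53 in pair 3. Without replicates 1, 2 and 3, 4, 3 and 2 stromal genes rose, and 5 without the pair term. All of those named lost their calls in some fits, MFAP5 at adjusted p = 0.069 and 0.104 without replicates 2 and 3, DCN at adjusted p = 0.127 and 0.23 without replicates 1 and 2, 0.0831 without the pair term, POSTN at adjusted p = 0.179, 0.0852 and 0.123 without replicates 1, 2 and 3 and OGN at adjusted p = 0.145, 0.137 and 0.0608 without replicates 1, 2 and 3. The part of the stromal difference in the other rises was not tested. In the cartilage and bone list COL11A1 alone of 14 tested genes was called (0.79 ± 0.15, adjusted p = 0.00133), with a median of 0.46. That call was 7.14% of the list, beside 4.49% of all genes called higher.

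Of 32 tested leukocyte genes, 2 rose (6.25%) and 1 fell (3.12%), near the 4.49% and 6.09% of all genes (median 0.18). The summed level of 4 defining markers was 6.86 to 11.0 RPKM in treated and 9.29 to 9.86 RPKM in control samples. That sum joins markers that went different ways. LCP1, its largest member, had 2.928 to 5.175 RPKM in treated and 5.661 to 6.631 RPKM in control samples. SPI1 was higher in treated samples, at 1.628 to 2.058 RPKM against 1.215 to 1.616 RPKM, and PTPRC and CSF1R overlapped. CD3E, of the T cell receptor complex, and CD36, a scavenger receptor, rose by 0.69 ± 0.20 and 0.80 ± 0.25 (adjusted p = 0.0314 and 0.0462), and LCP1 fell by 0.64 ± 0.20 (adjusted p = 0.0391). Both rises were lost without replicate 1 (adjusted p = 0.0792 and 0.101), and no leukocyte gene was called without replicate 2 or 3. CD3E and LCP1 were lost without the pair term (adjusted p = 0.132 and 0.0658). Of 36 tested interferon-induced genes 1 fell (2.78%, beside 6.09% of all genes), none rose, and the median was 0.03. The member that fell was SAMHD1 (-0.74 ± 0.16, adjusted p = 0.00355). SAMHD1 did not pass without replicate 2 or 3 (adjusted p = 0.0522 and 0.0734), which left no call in the list. RSAD2, the antiviral protein viperin, had 11.0, 11.4 and 9.66 RPKM in treated and 13.4, 10.2 and 6.44 RPKM in control samples (0.14 ± 0.53, adjusted p = 0.915), a difference that was negative without replicate 3.

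In the immediate early and inflammation list 4 of 44 tested genes rose (9.09%) and 1 fell (2.27%), beside 4.49% and 6.09% of all genes. The median was 0.07, and -0.07 without replicate 1. SOCS3, a feedback inhibitor of cytokine signalling, had 231, 108 and 29.9 RPKM in treated against 39.6, 61.7 and 15.3 RPKM in control samples. The arms overlapped, with the largest value in treated replicate 1 (1.42 ± 0.37, adjusted p = 0.0155). KLF2, which responds to flow in endothelium, had 13.2, 4.67 and 2.24 RPKM in treated and 0.522, 3.29 and 1.21 RPKM in control samples (1.62 ± 0.51, adjusted p = 0.0442). Without replicate 1 neither SOCS3 (0.87, adjusted p = 0.218) nor KLF2 (0.56, adjusted p = 0.566) passed. Both were also lost without the pair term (adjusted p = 0.5 and 0.129), and KLF2 without replicate 3 (adjusted p = 0.0644). TNFAIP6, a hyaluronan-binding protein induced in inflammation, had 30.6, 24.0 and 22.1 RPKM in treated and 11.3, 15.2 and 10.7 RPKM in control samples, and its call held without each replicate (1.02 ± 0.19, adjusted p = 0.000997). The chemokine gene CXCL12 rose by 0.88 ± 0.26 (adjusted p = 0.0342), and CXCL14 fell by 0.82 ± 0.18 (adjusted p = 0.00531). Both calls were lost in some fits, CXCL12 at adjusted p = 0.0678, 0.213 and 0.145 without replicates 1, 2 and 3, 0.145 without the pair term and CXCL14 at adjusted p = 0.0899 without replicate 3, 0.132 without the pair term. Without replicates 1, 2 and 3, 1, 3 and 2 genes of the list rose, and without the pair term 1 did. The chemokine gene that the table names CCLI7, outside the list, was among the 15 largest rises, with 3.85, 3.01 and 1.67 RPKM in treated and 2.73e-13, 0.372 and 0.463 RPKM in control samples (2.10 ± 0.56, adjusted p = 0.0185). It was lost in 3 fits (adjusted p = 0.158 and 0.0892 without replicates 1 and 2, 0.136 without the pair term).

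Of 19 tested neuron genes, 5 fell (26.3%) and 1 rose (5.26%), beside 6.09% and 4.49% of all genes, with a median of -0.45. The members that fell were TAC1, SNAP25, CHGA, SYT1 and CHGB, secretory genes of which all are also members of the synapse or peptide lists. Without replicate 2, without replicate 3 and without the pair term 3 neuron genes fell. SYT1 passed in none of the fits without a replicate or the pair term (adjusted p = 0.0867, 0.0976 and 0.16 without replicates 1, 2 and 3, 0.0814 without the pair term). CHGB also passed in none of them (adjusted p = 0.0924, 0.0634 and 0.0932 without replicates 1, 2 and 3, 0.109 without the pair term). SNAP25, of the vesicle fusion machinery, had 0, 0.767 and 0.588 RPKM in treated against 4.79, 3.42 and 4.01 RPKM in control samples (-2.36 ± 0.33, adjusted p = 4.41e-05). The neurofilament gene NEFL had 22.3, 17.7 and 19.0 RPKM in treated and 23.4, 23.8 and 17.9 RPKM in control samples and did not pass (-0.14 ± 0.24, adjusted p = 0.799). ELAVL4, a neuronal RNA-binding protein, rose (0.66 ± 0.19, adjusted p = 0.0257), a call lost in 3 fits (adjusted p = 0.118 and 0.192 without replicates 2 and 3, 0.0939 without the pair term). In the list of Schwann cells and glia, SOX10 alone of 12 tested genes was called (8.33%, beside 4.49% of all genes called higher), with a median of 0.46. None was called without a replicate or the pair term. The ion-transporting epithelium list had no call among 15 genes (median 0.35). Of 15 endothelial and blood genes, CLDN5, a tight junction protein, fell (-1.25 ± 0.25, adjusted p = 0.00237) and none rose (median 0.43). That 1 call was 6.67% of the list, near the 6.09% of all genes. CLDN5 did not pass without replicate 2 or without the pair term (adjusted p = 0.0622 without replicate 2, 0.124 without the pair term), and without replicate 1 FLT1 fell too (adjusted p = 0.0224). The endothelial markers CDH5 and KDR stood at 0.74 ± 0.29 and -0.35 ± 0.39 (adjusted p = 0.117 and 0.64). Of 11 muscle genes only TNNC2, a troponin C of fast muscle, was called (9.09%, beside 6.09% of all genes called lower). It had 2.04, 2.54 and 2.06 RPKM in treated against 14.2, 18.5 and 18.1 RPKM in control samples (-2.68 ± 0.42, adjusted p = 0.00017), while ACTA1 had 171, 123 and 196 RPKM in treated and 205.5, 224 and 142 RPKM in control samples (-0.22 ± 0.33, adjusted p = 0.752).

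**Figure D3:**
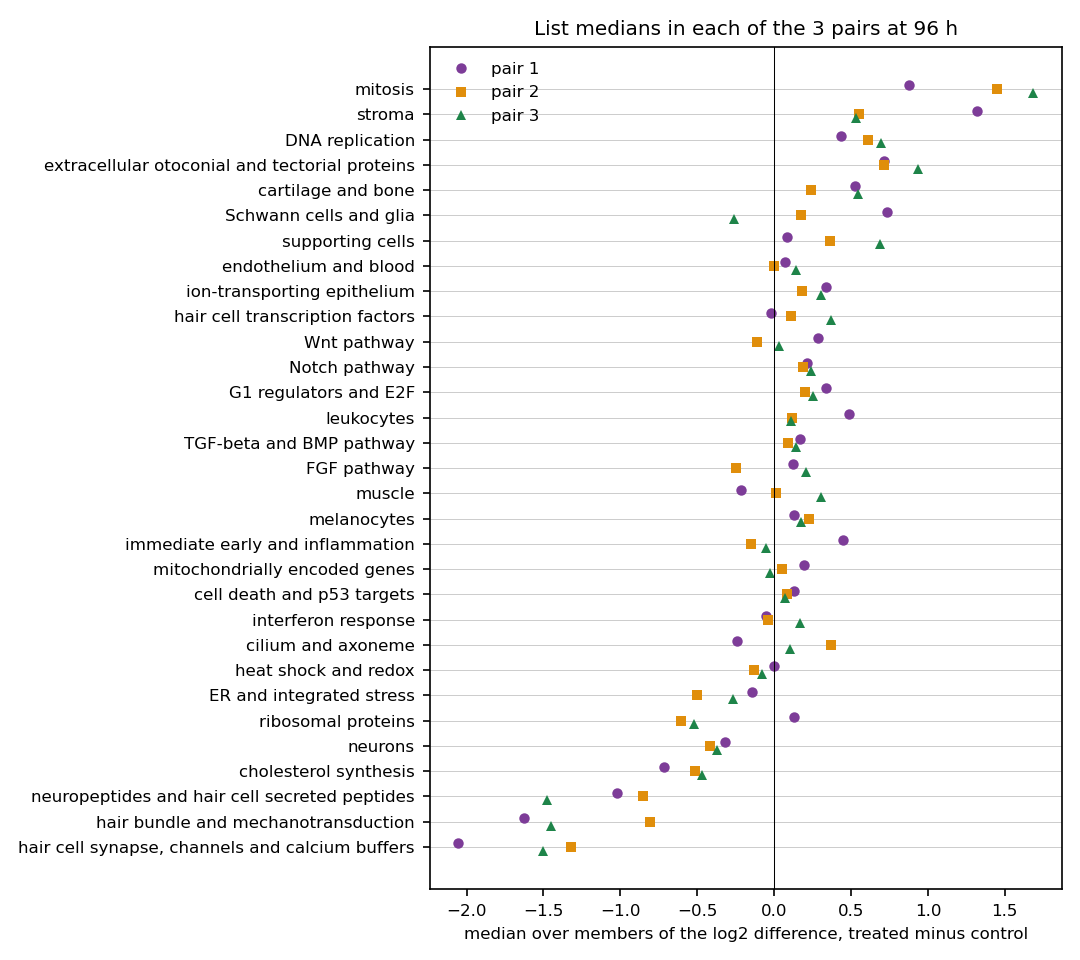
Median log2 difference, treated minus control, over the tested members of each list, in each of the 3 pairs of 96 h (purple circle, pair 1; orange square, pair 2; green triangle, pair 3). The synapse, bundle and peptide lists lie under 0 and the mitosis and replication lists above 0 in all 3 pairs; the stroma list is highest in pair 1, at 1.32.

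The effect at 96 h was set against that at neighbouring times by contrasts within the same limma fit. No gene (0.0%) had an effect at 96 h that differed from that at 72 h or at 120 h at an adjusted p under 0.05. At an unadjusted p under 0.05 the differences numbered 328 and 319 of the 13862 genes tested. Both are smaller shares than the 0.05 that such a threshold passes where no gene differs. None differed from the mean effect of the other 10 times (0.0%). There 754 genes had an unadjusted p under 0.05, a share near 0.05, and the smallest adjusted p was 0.773, for the interferon-induced ISG12-2. With weights estimated per pair, 141 genes differed from 72 h and 1110 from the mean of the other times, and none from 120 h. A contrast that misses the threshold does not show that the effects were equal.

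OTOF averaged 49.0 ± 5.13 RPKM in treated and 327.2 ± 34.4 RPKM in control samples at 72 h, 54.3 ± 6.84 RPKM in treated and 314.9 ± 46.2 RPKM in control samples at 96 h, and 71.0 ± 7.42 RPKM in treated and 272.2 ± 65.2 RPKM in control samples at 120 h (SD, n = 3 per arm and time). Its log2 change was -2.73 at 72 h, -2.52 at 96 h and -1.91 at 120 h. The median change of the bundle list was -1.45, -1.46 and -0.90 at these times, and that of the synapse list -1.395, -1.56 and -1.43. In POU4F3 the change was -1.69 at 0 h, -0.49 at 96 h and 0.33 at 168 h. The median change of the mitosis list was 1.57 at 72 h, 1.32 at 96 h and 0.96 at 120 h, and that of the replication list 0.74, 0.59 and 0.33. TOP2A had changes of -0.31 at 0 h, 2.31 at 66 h, 1.83 at 96 h and 0.78 at 168 h.

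EDNRB2 had its largest change at 96 h, 3.28 ± 0.25, against 2.96 at 72 h and 2.87 at 120 h. The difference from the mean of the other 10 times was 1.06 ± 0.27 and did not pass (adjusted p = 0.78). With weights estimated per pair this difference of EDNRB2 passed in limma (adjusted p = 0.00169), the smallest adjusted p of the 1110 genes then called. In HES5 the change was 1.11 at 72 h, 2.92 at 96 h, 3.003 at 120 h and 3.68 at 168 h. The difference of 96 h from 72 h, 1.80 ± 0.79, did not pass (adjusted p = 1), and at 72 h the treated samples of HES5 had a mean of 87.1 ± 115 RPKM (SD, n = 3), a spread larger than the mean. The change of SOCS3 at 96 h minus that at 72 h was 2.07 ± 0.52 and did not pass either (adjusted p = 1). RSAD2 stood at 3.62 at 0 h, 3.95 at 24 h and 3.23 at 48 h, at 0.79 to 1.11 from 54 to 66 h, at 0.22 at 72 h, 0.14 at 96 h and -0.07 at 120 h, and at 1.54 at 144 h and 0.34 at 168 h.

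**Figure D4:**
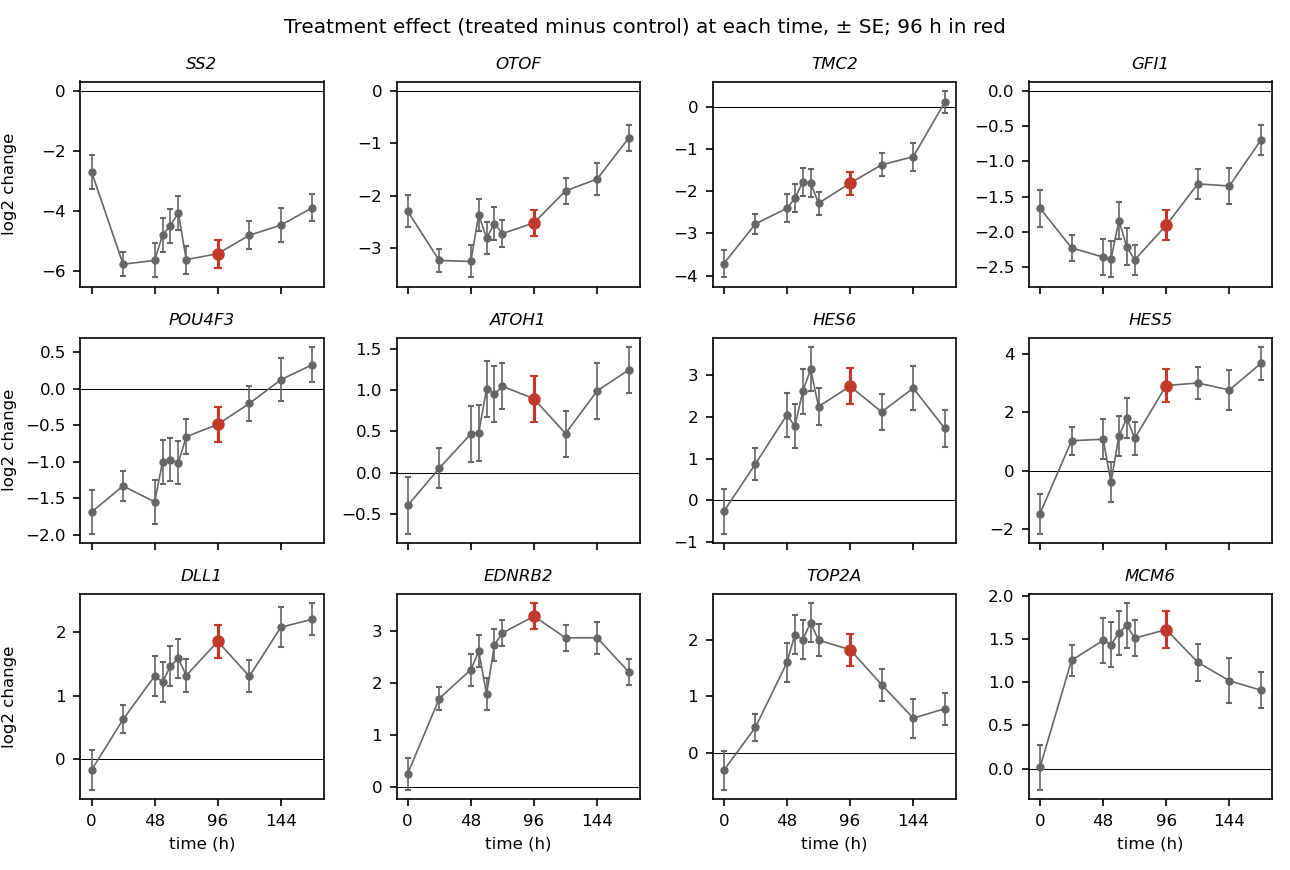
Treatment effect on 12 genes at each of the 11 times, as log2 change (treated minus control of log2(RPKM + 0.5)) ± SE from the limma fit, with 96 h in red. At 96 h SS2 is at -5.42, OTOF at -2.52 and EDNRB2 at 3.28, the highest of the 11 values of EDNRB2.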

How the data were processed

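The authors deposited 1 table of values. TopHat 1.4.0 and Partek 6.6 stand in the submitters' processing notes, which give no roles for them. The genome build, the annotation and the treatment of multiply mapped reads are not stated. The table names no unit. The deposited values were taken as RPKM. When they were multiplied by each library's alignments, part of the low rows fell on whole steps of a size set per row. In 43.1% of 2716 low rows more than 90% of values lay no further than 0.05 from such a step, and in 0% of 2857 rows as deposited. That check bears on scaling by library depth only, and division by transcript length was not tested. The 2 columns that matched no sample were not used. Of the 17684 table rows, 4080 carried Ensembl identifiers, and those of them that were tested were not named. No sequences or coordinates were used.

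Values were transformed to log2(RPKM + 0.5). Libraries read as repeats of 1 sample were averaged, leaving 56 samples. They entered 1 limma 3.58.1 fit (R 4.3.3, empirical Bayes with intensity trend) with 28 pairs as a block and 1 treatment effect per time (17 residual degrees of freedom). The fit was also run on simulated data in which a gene had the same spread in all samples. That run does not test pairs of unequal spread. P-values were adjusted by Benjamini-Hochberg over all 13862 genes and called under 0.05. Labels do not state the pairing. It comes from the shared replicate numbers: at 96 h same-numbered samples deviated together (r = 0.19, 0.208 and 0.463). In these deviations from the mean of its arm, each sample correlated best with its own number. In the log values themselves control replicate 1 did not, with r = 0.9294 to treated replicate 1 and 0.9435 and 0.9471 to treated replicates 2 and 3.

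The members and the 31 gene lists (1247 entries, 986 in the table, 904 tested, 231 called) were chosen with earlier results of these data known, and some list symbols were adapted to the table's names. The lists are hair bundle, hair cell synapse, hair cell transcription factors, supporting cells, Notch, FGF, Wnt, TGF-beta and BMP, replication, mitosis, G1 regulators, interferon, leukocytes, stroma, cartilage and bone, endothelium and blood, neurons, glia, melanocytes, ion-transporting epithelium, muscle, otoconial and tectorial proteins, cholesterol, endoplasmic reticulum stress, cell death, heat shock, immediate early genes, peptides, cilium, ribosome and mitochondrion. Named by rule were the 15 largest rises and falls among called genes with a symbol, the same direction in all 3 pairs and a mean of at least 1 RPKM in 1 arm, the 4 most changed called members of each list, and 25 fixed genes. Row names that are protein entry names were not treated as symbols, and other list members were named after their values were seen. Single genes of the cholesterol list are not reported here. Alternatives changed the block, pseudocount, filter, scaling, weights and samples.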

Additional observations from a re-analysis of the deposited data

How the results depend on the processing

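None of the 110 called genes that the rule named changed direction under the alternatives run. Of uncalled ones, JAG1 (-0.07) and RSAD2 (-0.06) turned negative without replicate 3, and SOX2 positive without replicate 1 (0.03), with quantile normalization (0.07) and with weights (0.02). Without replicate 1 the list medians of Wnt (-0.07), muscle (-0.01), immediate early (-0.07), cilium (0.25) and mitochondrial genes (-0.03) changed sign, the cilium median also without replicate 2 (0.002) and with quantile normalization (0.02). Without the pair term (no replicate block) 713 genes were called, 256 higher and 457 lower, and 14 replication genes rose. The total of called list members was then 154, and the bundle, synapse and mitosis counts were 22, 17 and 49. Counts of other lists under this fit stand beside their results. With the 6 samples of 96 h alone (2 residual degrees of freedom) 191 genes were called, 21 higher and 170 lower. Of the list members 49 were then called, with 11 bundle and 12 synapse genes lower and 7 mitosis and 1 replication gene higher. With weights estimated per pair (0.376, 0.882 and 3.79 for pairs 1, 2 and 3 at 96 h) 5248 genes were called, 2784 higher and 2464 lower, with more rises than falls, among them 528 list members, and 141 and 1110 genes differed from 72 h and from the mean of the other times. Leaving out 1 replicate of both arms gave 507 to 1337 calls, 134 to 571 higher and 373 to 766 lower, and 116 to 223 list members. In these fits 19 to 24 bundle, 16 to 18 synapse, 28 to 52 mitosis and 7 to 17 replication genes were called. Other pseudocounts (0.1 and 1), filters and scalings gave 1340 to 1625 calls. The cause of these shifts was not tested. Depth limits low genes most in treated replicate 1, with 3232929 alignments.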

Other observations

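Of 36 tested genes of the endoplasmic reticulum and integrated stress list, 2 rose (5.56%) and 5 fell (13.9%) at 96 h, with a median of -0.28. Of all genes 4.49% rose and 6.09% fell. Without replicate 2 none of the 36 was called, without replicate 3, 2 fell, and without the pair term 4 did. Neither rise was called with trimmed-mean scaling or without the pair term. ASNS, which makes asparagine, had 38.8, 29.7 and 43.1 RPKM in treated utricles and 79.3, 85.2 and 138 RPKM in controls (-1.396 ± 0.39, adjusted p = 0.0219). The amino acid transporter SLC7A5 had 117, 92.0 and 158 RPKM in treated against 278, 309 and 260.1 RPKM in control utricles, without overlap (-1.23 ± 0.24, adjusted p = 0.00186). SLC7A3, a transporter of basic amino acids, and MTHFD2, an enzyme of mitochondrial one-carbon metabolism, changed by -1.25 ± 0.31 and -1.05 ± 0.28 (adjusted p = 0.0106 and 0.0171), and the factor XBP1 by -0.74 ± 0.16 (adjusted p = 0.00355). ASNS did not pass without replicates 2 and 3 or without the pair term (adjusted p = 0.123, 0.17 and 0.0628). SLC7A3 (adjusted p = 0.148 and 0.0572) and MTHFD2 (adjusted p = 0.249 and 0.0592) did not pass without replicates 2 and 3. SLC7A5 was lost without replicate 2 (adjusted p = 0.0532). The members that rose were PDIA4 and CRELD2, which act in folding (0.48 ± 0.15 and 0.43 ± 0.14, adjusted p = 0.0448 and adjusted p = 0.0492). The chaperone HSPA5 had 210.0, 229 and 209 RPKM in treated and 235, 260.1 and 317 RPKM in control utricles and did not pass (-0.31 ± 0.23, adjusted p = 0.434). Over 19 tested genes of cholesterol synthesis the median was -0.68. In the heat shock and redox list 4 of 43 genes rose (9.3%) and 5 fell (11.6%), beside 4.49% and 6.09% of all genes (median -0.06). The mitochondrial chaperone HSPA9 changed by -1.25 ± 0.24 (adjusted p = 0.00149) and the peroxidase GPX8 by 1.196 ± 0.23 (adjusted p = 0.00169). Without replicates 1, 2 and 3, 3, 2 and 2 genes of this list rose and 3, 4 and 3 fell, and without the pair term 1 rose and 3 fell. Of 39 genes of cell death and p53 targets, 2 rose (5.13%) and 1 fell (2.56%), beside 4.49% and 6.09% of all genes (median 0.04). The members that rose were TP53I3 (1.05 ± 0.23, adjusted p = 0.00446) and BIRC5, which is also a mitosis gene (1.65 ± 0.29, adjusted p = 0.00052), and EDA2R fell (-1.25 ± 0.29, adjusted p = 0.00776). TP53I3 (adjusted p = 0.086 without replicate 3, 0.0613 without the pair term) and EDA2R (adjusted p = 0.194 without replicate 2, 0.179 without the pair term) lost their calls in 2 fits each.

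The list of cilium and axoneme genes was mixed: of 55 tested 6 rose (10.9%) and 5 fell (9.09%), beside 4.49% and 6.09% of all genes. The median was -0.01, and 0.25 without replicate 1. Without replicate 2 of both arms 1 rose and 6 fell, without replicate 3 none rose and 4 fell, and without the pair term 1 rose and 4 fell. HYDIN, a protein of the central pair of motile axonemes, had 2.10, 2.90 and 2.23 RPKM in treated utricles and 15.8, 11.9 and 11.8 RPKM in controls, with no overlap (-2.23 ± 0.25, adjusted p = 2.65e-06). The radial spoke gene RSPH1, the axonemal dynein gene DNAH5 and the dynein docking gene ARMC4 changed by -1.49 ± 0.28, -1.41 ± 0.26 and -1.39 ± 0.24 (adjusted p = 0.00128, 0.000905 and 0.000496). The Bardet-Biedl genes TTC8 and BBS10 rose by 0.56 ± 0.14 and 0.73 ± 0.18 (adjusted p = 0.014 and 0.00927), calls that were lost in some fits, TTC8 at adjusted p = 0.166 and 0.112 without replicates 2 and 3 and BBS10 at adjusted p = 0.064 and 0.0968 without replicates 1 and 3, 0.313 without the pair term. FOXJ1, the factor of motile cilia, stood at -0.07 ± 0.23 (adjusted p = 0.902). Ribosomal protein genes, whose values may be less certain because the treatment of multiply mapped reads is not stated, had a median of -0.32. Of 57 tested, 4 were lower (7.02%, near the 6.09% of all genes) and none higher. Their median was 0.13 in pair 1, -0.60 in pair 2 and -0.52 in pair 3, and without replicate 1 of both arms 25 of them fell. None was called by limma without replicate 2, without replicate 3 or without the pair term. Of the 13 mitochondrially encoded genes none was called by limma, and their median was 0.05, and -0.03 without replicate 1.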
